A study of Mus musculus with 10 samples.

Results

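Genes of the angiopoietin-Tie system and of Cxcl12 signalling were compared between glomeruli of Wt1 +/R394W and Wt1 +/+ mice. The set covers the secreted ligands Angpt1 and Angpt2, the related secreted proteins Angptl2 and Angptl4, the receptors Tek (the protein is called Tie2) and Tie1, the phosphatase Ptprb, the chemokine Cxcl12 and its receptors Cxcr4 and Ackr3. Every probe set whose platform annotation names exactly 1 gene, that gene being in this list of 10, was taken. This gave 16 probe sets of 9 genes among 45101 on the array, of which 45037 remained for testing after control probe sets were left out. Angptl2 had no such probe set in the annotation used and is not analysed here.

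The mutant group held 5 mice heterozygous for a knock-in of R394W in Wt1, and the wild-type group held 5 littermates with both normal copies. All 10 were unweaned males of 27 days from generation 4 of a backcross to FVB/N, and all had magnetic beads perfused through the heart so that glomeruli could be collected. The knock-in allele sits in the germ line and is not restricted to a cell type. Mutants were described by the submitters as free of mesangial lesions under the light microscope, with little albumin in the urine, so the comparison concerns an early stage of this Denys-Drash model. Each mouse gave 1 array, values are log2 signals after RMA (robust multi-array average) by the authors, and differences below are taken as mutant minus wild type, with n = 5 for both genotypes and SE for the standard error. Mice are numbered within a genotype only to name them. Wt1 itself (1425995_s_at) read 11.43 to 11.85 in mutants and 11.06 to 11.45 in wild types (difference 0.33 ± 0.10 SE, adjusted p = 0.244 in limma), and as the allele changes an amino acid, this level does not check the genotype labels.

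Angiopoietins act on endothelial cells. Angpt1, made by podocytes and perivascular cells, activates the receptor tyrosine kinase Tie2 and quiets the vessel wall, while Angpt2 competes for the same receptor and acts as an antagonist or a weak agonist depending on context. Tie1 forms complexes with Tie2 and modulates its signal, and Ptprb (also called VE-PTP) removes phosphate from Tie2. Cxcl12 is a chemokine that podocytes secrete and that is needed for the formation of glomerular capillaries. It signals through the G protein-coupled receptor Cxcr4, while Ackr3 binds and removes it.

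Among the ligands, the probe set of highest mean rose in mutant glomeruli for Angpt2 and fell for Cxcl12, and no receptor passed the test. Both calls lay close to the threshold (adjusted p = 0.0481 and 0.0421 in limma) and were lost in most fits that left out a mouse. No other probe set of Angpt2 or Cxcl12 was called. Of the 16 probe sets, 1 was called higher and 1 lower at an adjusted p under 0.05 (limma, Benjamini-Hochberg adjustment over all 45037 probe sets), where 0.853% of all probe sets were called, 0.391% higher and 0.462% lower. Differences were positive in 8 and negative in 8. By the probe set of highest mean, which represents each gene below as its main probe set, 5 of the 9 genes were positive and 4 negative, with a median of 0.03, against a median of 0.00 over 18193 genes. The genotypes did not overlap in 2 of the 16 probe sets, both of Angpt2, where 2.78% of all probe sets were apart. In whole glomeruli, fewer cells of a type and less RNA per cell cannot be told apart.

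**Figure D1:**
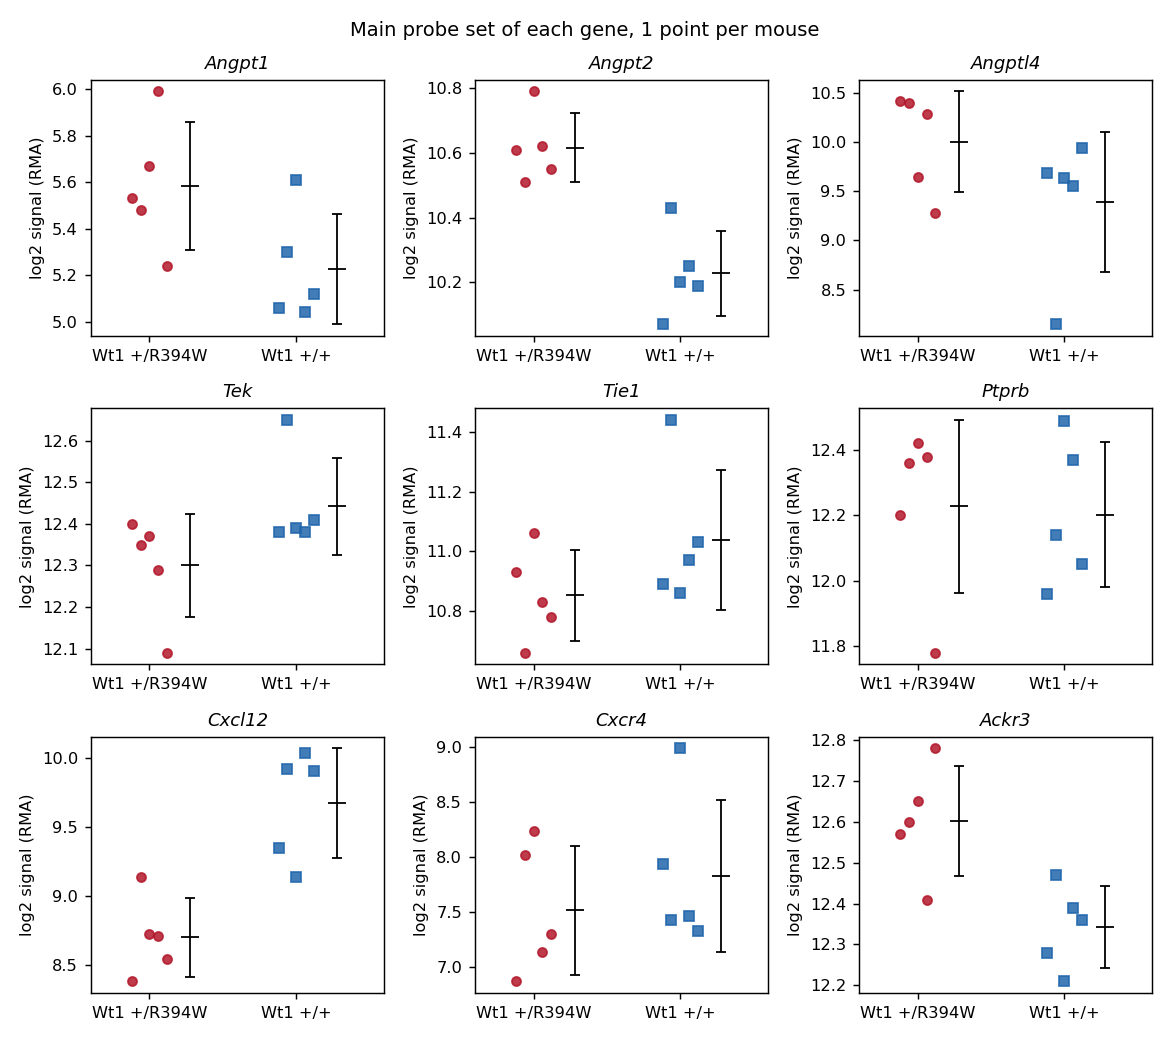
Log2 signal (RMA) of the main probe set of each of the 9 genes, with 1 point per mouse, Wt1 +/R394W in red on the left and Wt1 +/+ in blue on the right of each panel; bars give mean and SD of 5 mice, and each panel has its own vertical scale, which does not start at 0. Angpt2 lies between 10.51 and 10.79 in mutants, above all wild types, and Cxcl12 lies between 8.38 and 9.14 in mutants, against 9.14 to 10.04 in wild types.

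Angpt2 was higher in every mutant than in every wild type, by a small amount. Its main probe set (1448831_at, chromosome 8) read 10.61, 10.51, 10.79, 10.62 and 10.55 in mutants 1 to 5, against 10.07, 10.43, 10.20, 10.25 and 10.19 in wild types 1 to 5. The lowest mutant thus stood just above wild type 2, the highest of the wild types. Means were 10.61 ± 0.11 in mutants and 10.23 ± 0.13 in wild types (SD, n = 5 each), a difference of 0.39 ± 0.08 (SE) or 1.31-fold, with an adjusted p of 0.0481 in limma. The second Angpt2 probe set (1459636_at), whose signal lies below the array medians of 6.31 to 6.39, read 5.81, 5.60, 5.98, 5.80 and 5.77 in mutants and 5.51, 5.55, 5.53, 5.49 and 5.27 in wild types. These values did not overlap either, and their difference of 0.32 ± 0.08 (SE) missed the threshold over all probe sets (limma, adjusted p = 0.135). After subtraction of each genotype's mean, Pearson's r between the Angpt2 probe sets over 10 arrays was 0.58. Without wild type 2 and mutant 3, the mice farthest from the median in the main one, it was 0.19. The rise of the main probe set held in 1 of 10 fits that left out a mouse, the one without wild type 2 (adjusted p = 0.0295), and was lost in the other 9, with adjusted p-values from 0.073 to 0.124. Its difference stayed between 0.34 and 0.44 in those 10 fits.

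Angpt1, the agonist ligand, gave weak signals on both of its probe sets. The main one (1439066_at, chromosome 15) read 5.53, 5.48, 5.67, 5.99 and 5.24 in mutants and 5.06, 5.30, 5.61, 5.04 and 5.12 in wild types. Mutants 3 and 4 exceeded all wild types and the others lay within the wild-type range. The difference was 0.36 ± 0.14 (SE), with an adjusted p of 0.454 in limma. Its 95% interval, not adjusted for the number of probe sets, ran from 0.04 to 0.67. RMA compresses differences of probe sets this dim. The second probe set (1421441_at) averaged 5.05 ± 0.22 in mutants and 4.99 ± 0.13 in wild types (SD, n = 5 each) and differed by 0.05, with an interval of -0.18 to 0.29.

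A further angiopoietin, Angpt4, rose 2.11-fold in mutants. It encodes another Tie2 ligand, in mice also known under the name angiopoietin-3, and is not among the 10 genes of the set. It was the gene called among 26 measured in a wider Tie pathway list of 28, where 1.26% of all genes were called. That list was chosen with earlier results of these data known. Its main probe set (1455427_at, chromosome 2) read 7.43, 8.14, 8.40, 8.01 and 7.75 in mutants, against 6.71, 7.03, 6.82, 6.72 and 7.05 in wild types. All mutants lay above all wild types, with a gap between mutant 1 and wild type 5. Means of 7.95 ± 0.37 in mutants and 6.87 ± 0.16 in wild types (SD, n = 5 each) gave a difference of 1.08 ± 0.16 (SE), with an adjusted p of 0.00917 in limma. The second Angpt4 probe set (1450325_at) read 6.22, 6.49, 7.11, 6.82 and 6.58 in mutants and 5.46, 5.97, 5.87, 5.59 and 5.66 in wild types, again with no overlap. Its difference was 0.93 ± 0.16 (SE), and it was called as well (limma, adjusted p = 0.0188). The mean signal of this second probe set over all mice, 6.18, lay below the array medians of 6.31 to 6.39. With each mouse left out in turn the main Angpt4 probe set passed in all 10 fits, at adjusted p-values from 0.00227 to 0.0356. It missed the threshold with only the 7 mice with close animal numbers (difference 1.14, adjusted p = 0.107). Angpt4 lies on the chromosome that also carries Wt1, so alleles linked to the knock-in cannot be told apart from the mutation itself in this design.

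**Figure D2:**
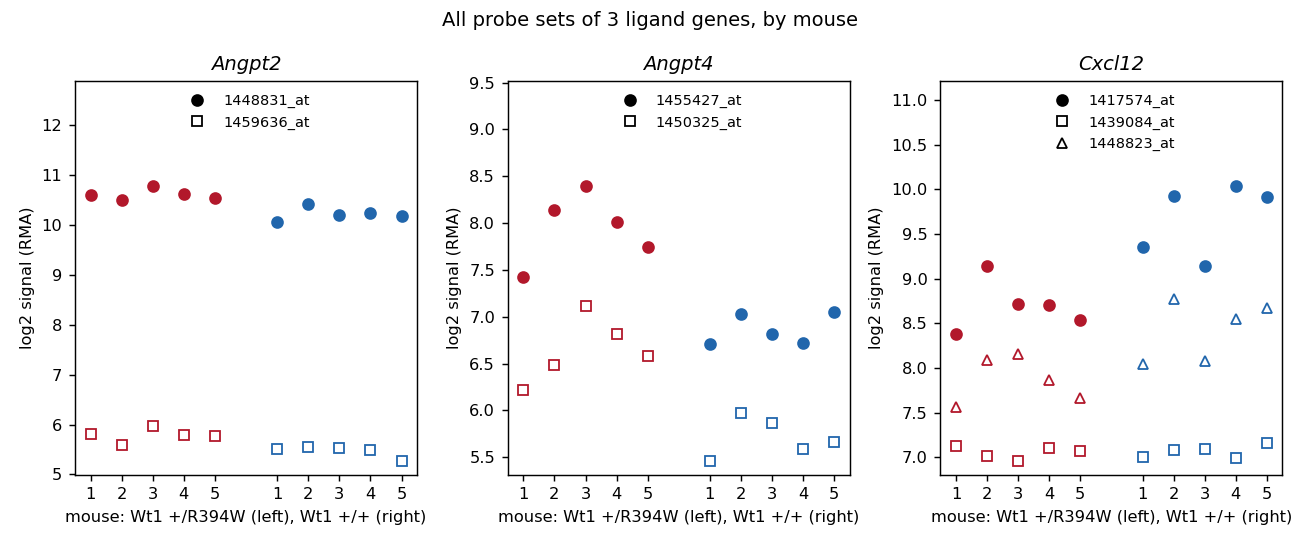
Log2 signal (RMA) of every probe set of Angpt2, Angpt4 and Cxcl12 in each mouse, mutants 1 to 5 in red on the left and wild types 1 to 5 in blue on the right of each panel; filled circles are the main probe set and open symbols the others. Both probe sets of Angpt2 and of Angpt4 separate the genotypes, and of the 3 Cxcl12 probe sets 1439084_at stays between 6.96 and 7.16 in all mice.

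The receptors of these ligands did not pass. Tek, the Tie2 receptor (1418788_at, chromosome 4), read 12.40, 12.35, 12.37, 12.29 and 12.09 in mutants and 12.38, 12.65, 12.39, 12.38 and 12.41 in wild types. Of the mutants, 4 lay below all wild types by small margins, and wild type 2 stood above the rest. The difference was -0.14 ± 0.08 (SE) with an interval of -0.31 to 0.03 (limma, adjusted p = 0.644). Tie1 (1416238_at, chromosome 4) read 10.93, 10.66, 11.06, 10.83 and 10.78 in mutants and 10.89, 11.44, 10.86, 10.97 and 11.03 in wild types. The genotypes overlapped, wild type 2 was again the highest, and the difference of -0.19 ± 0.11 (SE) had an interval of -0.44 to 0.06 (limma, adjusted p = 0.676). For the phosphatase gene Ptprb the main probe set (1436367_at, chromosome 10) averaged 12.23 ± 0.26 in mutants and 12.20 ± 0.22 in wild types (SD, n = 5 each), a difference of 0.03 with an interval of -0.28 to 0.33. Its 2 other probe sets differed by -0.13 (interval -0.47 to 0.21) and -0.10 (interval -0.72 to 0.52). Neither Tek nor Ptprb nor Tie1 is thereby shown to be alike in both genotypes.

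Tek, Tie1 and Ptprb are endothelial genes, and most of the other endothelial markers had small negative differences. Of 18 measured, 14 had a negative and 4 a positive difference, and the median was -0.11. None passed at an adjusted p under 0.05 (limma, smallest adjusted p 0.0863), where 1.26% of all genes were called. The nitric oxide synthase gene Nos3 (-0.37 ± 0.08 SE) and the angiogenic receptor gene Flt1 (-0.25 ± 0.08 SE) were among those with the smallest p. The mean of the endothelial list lay between 11.03 and 11.28 in mutants and between 11.19 and 11.32 in wild types. The part of endothelial content in the receptor values was not tested.

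Angpt2 was also set against the receptors within genotypes. After subtraction of each genotype's mean, Pearson's r between the main probe sets of Angpt2 and Tie1 over 10 arrays was 0.90 (Spearman's rho 0.77). Without wild type 2 and mutant 3, the mice farthest from the median in Angpt2, r was 0.58. Between Angpt2 and Tek r was 0.64 (rho 0.59), and 0.17 without the same mice, so that relation rests on them. The genes whose pattern within genotypes was most like that of Angpt2, over the same 10 arrays, were Gm12446 (r 0.92), Gmeb2 (0.91) and Wbp1l (0.91), and without those mice the values were 0.64, 0.57 and 0.57. These arrays share tissue, preparation and normalization, and the correlations are descriptions only.

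Other components of Tie signalling showed no calls. Beside Angpt4, the other 25 measured genes of the list did not pass, where 1.26% of all genes were called. Over the list, 16 genes were positive and 10 negative, with a median difference of 0.05 against 0.00 over all genes. Dok2, an adaptor protein that docks on activated Tie2, read higher in every mutant than in every wild type but missed the threshold (0.30 ± 0.08 SE, limma, adjusted p = 0.169). Mutant 4 at 7.32 barely exceeded wild type 5 at 7.31, and 2.78% of all probe sets were apart. Svep1, an extracellular protein that binds Tie1, differed by 0.56 ± 0.18 (SE, adjusted p = 0.272 in limma). The forkhead factor gene Foxc2 differed by -0.37 ± 0.14 (SE, adjusted p = 0.412 in limma) and Pik3r1, a regulatory subunit of PI3-kinase, by 0.22 ± 0.09 (SE, adjusted p = 0.447).

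**Figure D3:**
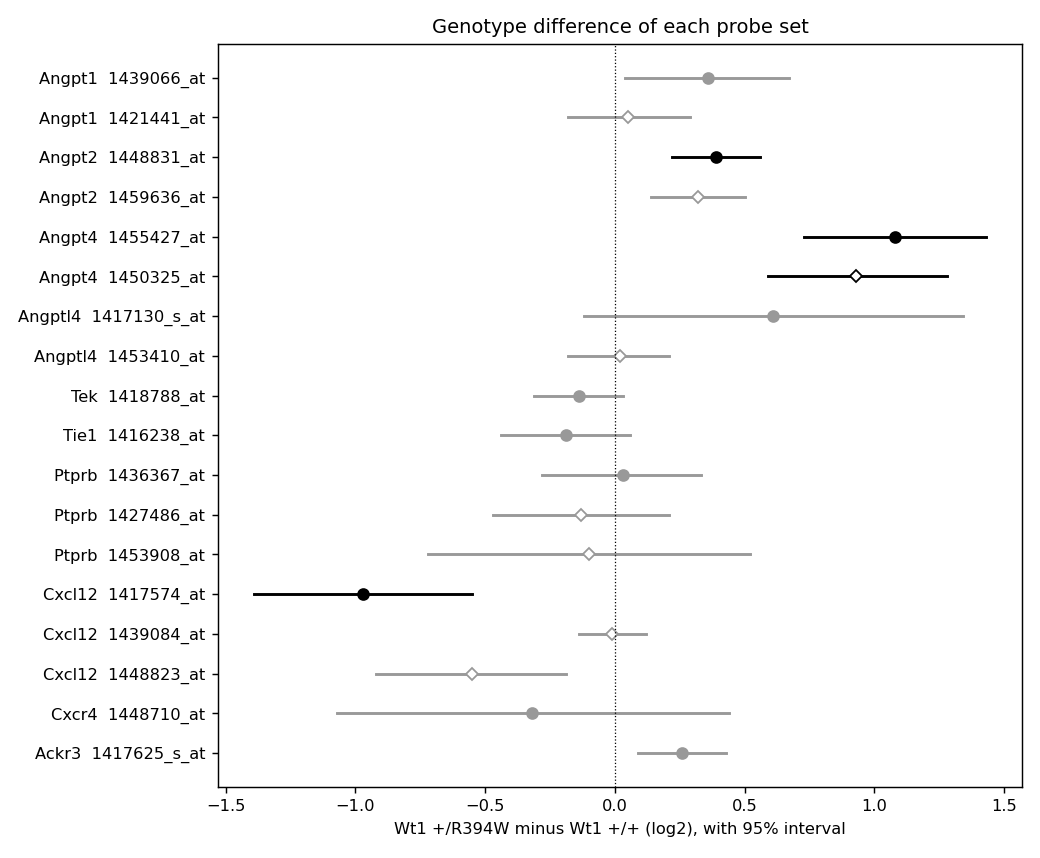
Difference between Wt1 +/R394W and Wt1 +/+ (log2, mutant minus wild type) for the 16 probe sets and both probe sets of Angpt4, with 95% intervals from limma that are not adjusted for the number of probe sets; circles are main and diamonds other probe sets, black where the adjusted p is under 0.05 and grey otherwise. Angpt2 (0.39), both probe sets of Angpt4 (1.08 and 0.93) and Cxcl12 (-0.97) are black.

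Angptl4, a secreted inhibitor of lipoprotein lipase that podocytes can produce, varied widely between mice. Its main probe set (1417130_s_at, chromosome 17), of a kind that can match more than 1 transcript, read 10.41, 10.39, 9.64, 10.28 and 9.28 in mutants and 9.68, 8.15, 9.63, 9.55 and 9.94 in wild types. Mutants 1, 2 and 4 exceeded all wild types, mutant 5 lay below most of them, and wild type 2 was far below the rest. The difference of 0.61 ± 0.33 (SE) had an interval of -0.12 to 1.34 and did not pass (limma, adjusted p = 0.631). Without wild type 2 it shrank to 0.30. The second probe set (1453410_at) had a mean of 3.83, near the bottom of the scale, and differed by 0.02 (interval -0.18 to 0.21).

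None of 13 measured genes of the angiopoietin-like family and its lipid partners was called, where 1.26% of all genes were called. The relatives Angptl1 (0.06 ± 0.07 SE), Angptl6 (0.03 ± 0.07 SE) and Angptl7 (0.00 ± 0.09 SE) had differences smaller than their standard errors. Angptl1 was dim, with a mean of 5.95 on its main probe set, below the array medians of 6.31 to 6.39. The lipid droplet protein gene Plin2 (0.22 ± 0.10 SE) and the pyruvate dehydrogenase kinase gene Pdk4 (0.45 ± 0.27 SE), both responsive to fatty acids, had adjusted p-values of 0.51 and 0.671 in limma. Ppard, a nuclear receptor for fatty acids, differed by -0.10 ± 0.06 (SE) and the lipase maturation factor gene Lmf1 by -0.10 ± 0.07 (SE). The median of the list was 0.03.

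Because Wt1 encodes a zinc finger factor that binds DNA, promoter windows of the chemokine genes and of Angpt4 are shown from RefSeq (GRCm38.p6), each running from 250 bases before to 50 after the start of the gene, in the direction of transcription. Capitals mark matches to GNGNGGGNG on either strand, letters that cover GC-rich sites described for zinc finger factors of the EGR and WT1 kind, overlapping matches included.
Cxcl12 (chr6:117168285-117168584, + strand): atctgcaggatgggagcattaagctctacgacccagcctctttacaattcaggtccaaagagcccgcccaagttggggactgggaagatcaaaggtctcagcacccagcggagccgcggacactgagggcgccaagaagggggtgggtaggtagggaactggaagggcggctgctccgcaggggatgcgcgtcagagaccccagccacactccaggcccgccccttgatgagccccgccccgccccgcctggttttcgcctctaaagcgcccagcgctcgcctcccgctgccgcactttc
Cxcr4 (chr1:128592250-128592549, - strand): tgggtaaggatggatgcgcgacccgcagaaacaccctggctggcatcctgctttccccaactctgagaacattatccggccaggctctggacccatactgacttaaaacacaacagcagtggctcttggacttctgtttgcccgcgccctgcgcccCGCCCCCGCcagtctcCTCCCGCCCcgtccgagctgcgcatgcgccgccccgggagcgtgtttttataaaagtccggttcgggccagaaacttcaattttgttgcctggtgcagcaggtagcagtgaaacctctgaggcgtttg
Ackr3 (chr1:90203730-90204029, + strand): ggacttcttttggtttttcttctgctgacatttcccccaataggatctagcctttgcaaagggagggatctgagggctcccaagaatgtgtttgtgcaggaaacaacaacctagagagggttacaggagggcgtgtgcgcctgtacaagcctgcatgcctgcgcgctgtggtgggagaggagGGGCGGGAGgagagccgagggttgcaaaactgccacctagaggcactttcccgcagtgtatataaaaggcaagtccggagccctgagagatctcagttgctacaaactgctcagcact
Angpt4 (chr2:151910957-151911256, + strand): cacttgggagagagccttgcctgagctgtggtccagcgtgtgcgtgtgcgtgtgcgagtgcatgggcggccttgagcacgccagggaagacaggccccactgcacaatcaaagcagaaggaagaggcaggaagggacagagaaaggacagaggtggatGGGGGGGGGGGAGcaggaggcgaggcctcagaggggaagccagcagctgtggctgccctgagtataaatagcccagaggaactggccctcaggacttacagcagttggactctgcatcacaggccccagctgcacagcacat
Cxcl12 held no match, Cxcr4 held 2 on the strand opposite to transcription, Ackr3 held 1, and Angpt4 held 4 that overlap in a single G-rich run. Windows were listed for 6 of the 10 genes (Angptl2, Tek, Tie1, Cxcl12, Cxcr4 and Ackr3), and 3 of them held a match, Tie1 with 1 being the third. Among all 32851 windows listed, 39.6% held at least 1 match, and of those with at least 60% G and C it was 71.2%. A match is a description of letters and shows no binding.

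Of the 9 genes, Cxcl12 had the largest difference by main probe set, close to 2-fold. Its main probe set (1417574_at, chromosome 6) read 8.38, 9.14, 8.72, 8.71 and 8.54 in mutants, against 9.35, 9.92, 9.14, 10.04 and 9.91 in wild types. Of the mutants, 4 lay below all wild types, and mutant 2 reached the level of wild type 3. Means were 8.70 ± 0.29 in mutants and 9.67 ± 0.40 in wild types (SD, n = 5 each), so that Cxcl12 fell by 0.97 ± 0.19 (SE) on the log2 scale, 1.96-fold, with an adjusted p of 0.0421 in limma. The call held in 2 of 10 fits with a mouse left out, without wild type 3 (adjusted p = 0.0201) and without mutant 2, and was lost in the other 8, with adjusted p-values up to 0.116. The difference itself stayed between -1.10 and -0.88 in these fits.

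The other Cxcl12 probe sets gave unequal readings. Probe set 1448823_at read 7.56, 8.09, 8.16, 7.87 and 7.67 in mutants and 8.05, 8.77, 8.08, 8.55 and 8.67 in wild types. Mutants 1, 4 and 5 lay below all wild types, and the difference of -0.55 ± 0.17 (SE) did not pass (limma, adjusted p = 0.241). Probe set 1439084_at averaged 7.06 ± 0.07 in mutants and 7.06 ± 0.07 in wild types (SD, n = 5 each), a difference of -0.01 with an interval of -0.14 to 0.12. Within genotypes the main probe set and 1448823_at varied together (Pearson's r 0.87, rho 0.79 over 10 arrays, and r 0.86 without wild type 3 and mutant 2). With the 3 probe sets averaged, the difference was -0.51 and missed the threshold (limma, adjusted p = 0.0615). Which transcripts of Cxcl12 each probe set covers is not given in the sources used here. The genes most like the main probe set within genotypes were Pdcd10 (r 0.90), Traf2 (0.86) and Ppp2r5a (0.85), over the same 10 arrays. Without wild type 3 and mutant 2 the values were 0.93, 0.74 and 0.86. The genotype differences of these genes were 0.06, 0.02 and -0.05, and none was called. They were picked for the highest r among many genes, so these correlations are descriptions only.

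**Figure D4:**
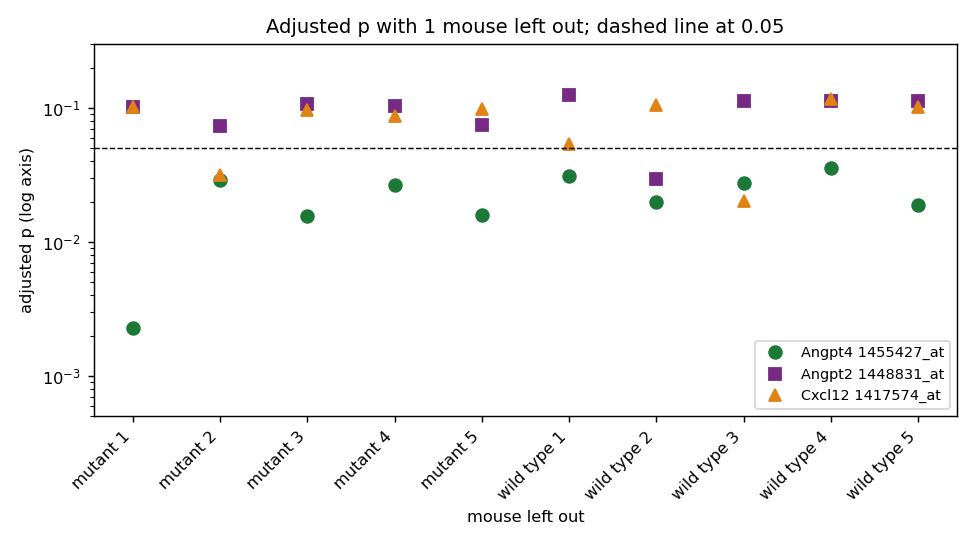
Adjusted p (limma, log axis) of the main probe sets of Angpt4, Angpt2 and Cxcl12 when the mouse named on the horizontal axis was left out, with a dashed line at 0.05. Angpt4 stays under the line in all 10 fits, Angpt2 in 1 (without wild type 2) and Cxcl12 in 2 (without mutant 2 and without wild type 3).

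The receptors of Cxcl12 did not pass. Cxcr4, the signalling receptor (1448710_at, chromosome 1), read 6.87, 8.02, 8.24, 7.14 and 7.30 in mutants and 7.94, 7.43, 8.99, 7.46 and 7.33 in wild types. Both genotypes spread over more than a log2 unit and overlapped, with wild type 3 the highest. The difference of -0.32 ± 0.34 (SE) had an interval of -1.07 to 0.44 (limma, adjusted p = 0.84). Ackr3, the scavenging receptor (1417625_s_at, chromosome 1, a probe set of the kind that can match several transcripts), read 12.57, 12.60, 12.65, 12.41 and 12.78 in mutants and 12.28, 12.47, 12.21, 12.39 and 12.36 in wild types. Of the mutants, 4 lay above all wild types and mutant 4 lay among them. The difference of 0.26 ± 0.08 (SE) had an interval of 0.09 to 0.43 before adjustment and an adjusted p of 0.243 in limma. Within genotypes Cxcl12 showed r of -0.30 with Cxcr4 (rho -0.18) and 0.39 with Ackr3 (rho 0.49) over 10 arrays, and -0.15 and 0.26 without wild type 3 and mutant 2.

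No gene was called among 25 measured genes that bind, cut or transmit Cxcl12 or signal beside its receptors (smallest adjusted p 0.399 in limma). Over all genes, 1.26% were called. In this list 16 were positive and 9 negative, with a median of 0.02 against 0.00 over all genes. Arrb1, a beta-arrestin that Ackr3 and Cxcr4 recruit, differed by -0.29 ± 0.11 (SE, adjusted p = 0.425 in limma). Ramp2 (-0.22 ± 0.08 SE) and Ramp3 (-0.23 ± 0.11 SE), partner proteins of the adrenomedullin receptor, and Hif1a (0.18 ± 0.09 SE), a hypoxia factor known to induce Cxcl12, had adjusted p-values of 0.399, 0.537 and 0.571.

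Podocyte markers were bright on all arrays, and tubule markers varied between mice of both genotypes. The calls in the lists below stand beside 1.26% called over all genes. The mean of 13 podocyte markers lay between 12.14 and 12.49 in mutants and between 12.39 and 12.53 in wild types, with 9 of 13 negative, and Plce1, reported from this model in the literature, was called (-0.74 ± 0.11 SE, adjusted p = 0.00865 in limma). Mesangial and smooth muscle markers averaged 9.55 to 9.93 in mutants and 9.43 to 9.66 in wild types (8 of 13 positive, none called). Among these, the contractile genes Acta2 (0.89 ± 0.27 SE) and Tagln (0.77 ± 0.28 SE) had positive differences. Cspg4 (-0.21 ± 0.06 SE, adjusted p = 0.249 in limma) was lower in every mutant than in every wild type. The margin was narrow, with mutant 5 at 9.33 and wild type 3 at 9.37, and 2.78% of all probe sets were apart. Proximal tubule markers ran from 6.75 to 10.26 in mutants and from 6.58 to 9.21 in wild types (13 of 15 positive, none called), and distal nephron markers from 6.45 to 8.16 in mutants and from 6.50 to 8.04 in wild types (11 of 14 positive, none called). Parietal markers lay at 7.57 to 8.10 in mutants and 7.42 to 7.80 in wild types (5 of 8 positive, none called). The 16 leukocyte markers averaged 5.78 to 6.46 in mutants and 5.91 to 6.78 in wild types, with 8 positive, 8 negative and a median difference of 0.00. Among them the macrophage receptor gene Csf1r was called by its main probe set (-0.99 ± 0.17 SE, adjusted p = 0.022 in limma). Its other probe sets differed by -0.66 and -0.55 and were not called (adjusted p = 0.115 and 0.107 in limma). The MHC class II gene H2-Ab1 (0.45 ± 0.19 SE) and the complement gene C1qa (0.21 ± 0.09 SE) had positive differences that did not pass. The 3 measured erythroid genes averaged 6.81 to 7.36 in mutants and 7.29 to 8.06 in wild types (1 of 3 positive), and Slc25a37 was called (-0.59 ± 0.12 SE, adjusted p = 0.0436 in limma). The other erythroid genes were not called, Alas2 at -0.98 ± 0.30 (SE) and Hba-a1 at 0.10 ± 0.08 (SE) with a low mean signal of 4.06. The part of podocyte, endothelial, mesangial and smooth muscle, parietal, leukocyte and erythroid content in the Angpt2, Angpt4 and Cxcl12 values was not tested. With the tubule marker mean as a covariate the differences were 0.39 for Angpt2, 1.09 for Angpt4 and -0.96 for Cxcl12, and the calls of Angpt2 (adjusted p = 0.0621) and Cxcl12 (0.0537) were lost.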

How the data were processed

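Total RNA of glomeruli from 10 mice was measured on 1 array each. The authors deposited log2 expression values made with RMA, per the submitters' processing notes, whose version is not given in the sources used here. Background correction and probe summaries therefore stand as deposited. All 10 columns matched a sample, and 0 belonged to others. After 64 control probe sets were left out, 45037 were tested with limma (version 3.58.1, R version 4.3.3), mutant minus wild type, with no covariates and Benjamini-Hochberg adjustment over all of them. A call is an adjusted p under 0.05. Each gene is represented by its probe set of highest mean. Replicates are separate mice, and their number limits the precision.

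Genes named are the members, called genes of each list with up to 4 further genes of smallest p, and the 3 genes most alike each called member. Angptl1, Angptl6, Angptl7 and member pairs for correlation were named after their values were seen. Members and lists were chosen with earlier results of these data known. The code of the fit was checked on simulated data with known changes and independent noise, which does not bear on the calls above. Alternatives covered scaling, signal filters, variance models, array weights, thresholds, probe set choice, a tubule covariate, mice with close animal numbers and each mouse left out. Leaving out mutant 5 and wild type 5 together, the mice with the lowest tubule markers, was chosen after seeing the data. Gene names came from the platform annotation, with 34741 of 34945 single-gene probe sets matched to RefSeq (GRCm38.p6) by gene number. Figures used matplotlib (version 3.10.9).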

Additional observations from a re-analysis of the deposited data

Results flagged for a closer look

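Of 36 groups of 5 mice examined (16 member probe sets and both of Angpt4, in each genotype), 3 held a mouse whose gap to its nearest neighbour exceeded 0.71 of the group's range, and chance flags about 1 group in 20. Wild type 2 read 8.15 for Angptl4 (1417130_s_at), below the other wild types, which lay at 9.55 to 9.94. The same mouse read 12.65 for Tek (1418788_at), above the other wild types at 12.38 to 12.41. Wild type 5 read 5.27 for the dim second Angpt2 probe set (1459636_at), below the other wild types at 5.49 to 5.55.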

How the results depend on the processing

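No paired analysis was possible because the labels give no litter or shared replicate number. The count of 2 called member probe sets lay between 0 and 1 when each mouse was left out in turn. It was 0 with array weights, with the tubule covariate, at a threshold of 0.01, with only mutants 1 to 4 and wild types 2 to 4 (with or without a block for their 2 runs of numbers), and without mutant 5 and wild type 5, and 1 with median-centred arrays. It was 2 in the other 7 settings. The Angpt2 difference was 0.40 with array weights (adjusted p = 0.0536), 0.34 and 0.35 with close animal numbers without and with the block (0.388 and 0.335), 0.39 with median centring (0.071), 0.39 with the tubule covariate (0.0621) and 0.39 without mutant 5 and wild type 5 (0.159). At a threshold of 0.01 its 0.39 did not pass. The Cxcl12 difference was -0.87 with array weights (0.0669), -0.96 and -0.97 with close animal numbers (0.292 and 0.306), -0.51 with gene means (0.0615), -0.96 with the tubule covariate (0.0537) and -0.87 without mutant 5 and wild type 5 (0.208), and its -0.97 did not pass at 0.01. Angpt4 missed the threshold with close animal numbers, at 1.14 and 1.11 (adjusted p = 0.107 and 0.113), and passed in 13 of 15 settings beside the leave-one-out fits. With a mouse left out, differences ran from 0.34 to 0.44 for Angpt2, from -1.10 to -0.88 for Cxcl12 and from 0.96 to 1.21 for Angpt4. The second Angpt4 probe set lost its call without wild type 1 or wild type 4 (adjusted p = 0.0541 and 0.0635), with close animal numbers without and with the block (0.255 and 0.264), without mutant 5 and wild type 5 (0.0903) and at a threshold of 0.01. Settings with 7 or 8 mice hold fewer samples, and the cause of the other losses was not tested. No called difference changed sign in any setting. The 14 uncalled member probe sets were called in none. In the lists, Dok2 passed with the tubule covariate (0.33, adjusted p = 0.0347) and Arrb1 without mutant 3 (-0.40, adjusted p = 0.0444).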
